A study of Mus musculus with 6 samples.

Results

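The genes described here are 7 chemokine receptors other than Ccr2: Ccr1, Ccr7, Ccrl2, Cxcr2, Cxcr3, Cxcr4 and Cxcr6. They were taken by gene name, with no threshold on a measured value, though the set was drawn up with earlier results of these data known, and all 7 were found among the 57010 genes of the count table. RNA was sequenced from monocytes of the bone marrow of C57BL/6 mice (male and female C57BL/6J mice in the methods of the study), all 1 year old and untreated as far as the labels say, with 3 femur libraries (S13, S15 and S18) and 3 mandible libraries (S16, S19 and S23). Both groups were enriched with the same mouse monocyte isolation kit, which labels the other cells of the marrow and keeps what is not labelled. The labels name neither the sex nor the animal of a library, so the p-values measure the spread between these libraries, part of which may be technical.

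Chemokine receptors are G protein-coupled receptors with which white blood cells follow gradients of small secreted proteins, the chemokines. In bone marrow the pair of CXCL12 and its receptor CXCR4 holds hematopoietic cells and neutrophils in place, and CXCR2 pulls mature neutrophils into the blood. Bone marrow monocytes leave mainly through CCR2, and CCR1 is found on monocytes and on the precursors of osteoclasts, the cells that resorb bone. CXCR3 and CXCR6 are best known from T and NK cells, CCR7 from dendritic and T cells on their way to lymph nodes, and CCRL2 is an atypical receptor that presents the attractant chemerin without passing a G protein signal.

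All 7 receptors were detected and passed the filter on low counts, and none of them differed between mandibular- and femur-derived monocytes at the thresholds used, an adjusted p under 0.05 together with a difference of at least 2-fold (quasi-likelihood test of edgeR, Benjamini-Hochberg adjusted over 18114 genes). Over all tested genes 3.88% were called higher and 1.30% lower in the mandible. DESeq2 and limma-voom also called 0 of the 7, and in each of the 3 tools 1 receptor, Ccr1, had an unadjusted p under 0.05, as did 16.4% of all tested genes in edgeR. The mandible mean was below the femur mean in 5 of the 7, and the median log2 fold change of the 7 was -0.56, against -0.04 over all tested genes. In DESeq2 these medians were -0.53 and -0.01, and in limma-voom they were -0.11 and -0.09, so that the distance of the 7 from all genes depended on the tool. Ccr1 was the 1 receptor with every mandible library below every femur library, a pattern that 11.5% of the tested genes had. The groups overlapped in the other 6, and no receptor had every mandible library above every femur library, which 12.7% of the tested genes had.

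**Figure D1:**
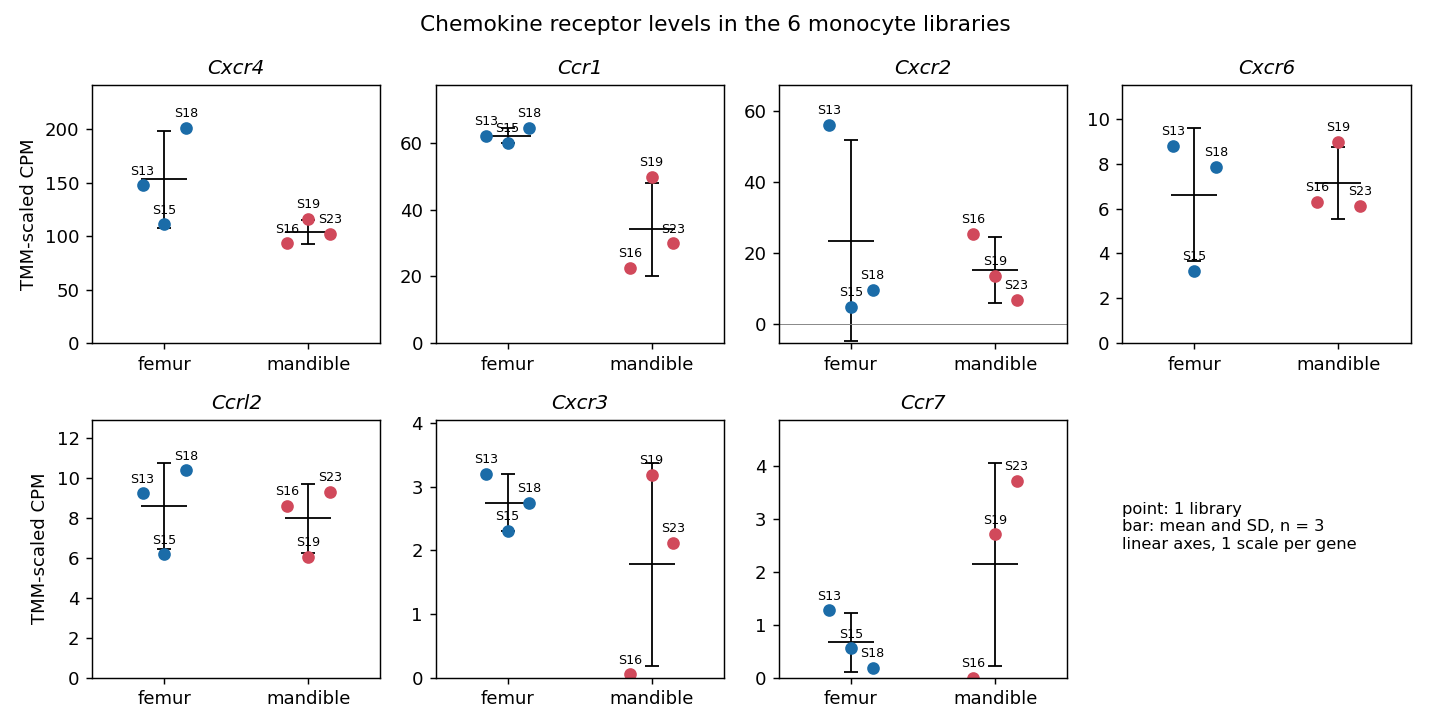
Level of each receptor in TMM-scaled counts per 1000000 counts (CPM, linear vertical axis, with its own scale for each gene) in the 3 femur (blue) and 3 mandible (red) libraries. Each point is 1 library, and the horizontal line with its bar is the mean and SD of 3 libraries. The groups are apart in the panel of Ccr1 alone, while femur S13 stands above the rest in Cxcr2 and mandible S16 lies at or near 0 in Cxcr3 and Ccr7.

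The libraries held 15718782 to 25371474 counts on genes. Levels are given as CPM after TMM scaling (trimmed mean of M values), as the mean ± SD of 3 libraries, and a count of 0 allows up to 0.133 to 0.172 CPM on this scale, a limit that covers counting error only. The markers of monocytes were present in every library at a summed level of 9474 to 16754 CPM for the femur and 8258 to 14455 CPM for the mandible, led by Lyz2 and F13a1. Of these 15 markers 1, Nr4a1, was called, higher in the mandible, as were 3.88% of all tested genes. Markers of other cells were present too. The 15 neutrophil markers summed to 4292 to 35109 CPM for the femur and 4596 to 11784 CPM for the mandible, the 15 mesenchymal and endothelial markers to 218 to 239.8 CPM for the femur and 7666 to 11862 CPM for the mandible, and the 9 megakaryocyte and platelet markers to 691 to 1128 CPM for the femur and 152 to 194 CPM for the mandible. Xist, which is transcribed in female cells, had 25189 counts in mandible S23 and at most 12 in the other 5 libraries, and the Y-linked Ddx3y had no count in S23 and at least 840 in the others.

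Per kilobase of all annotated exons of a gene joined, which can be longer than any 1 transcript, the receptors spanned a wide range. It ran from Cxcr4 down through Ccr1, Cxcr2, Cxcr6, Ccrl2 and Cxcr3 to Ccr7. Over all 6 libraries the mean level was 71.1 CPM per kilobase for Cxcr4, 17.0 for Ccr1, 6.35 for Cxcr2, 3.56 for Cxcr6, 3.19 for Ccrl2, 1.31 for Cxcr3 and 0.710 for Ccr7. For scale, Ccr2, the receptor that is best known from classical monocytes, stood at 98.2 CPM per kilobase over a joined exon length of 6760 bases. Without division by length the mean was 664 CPM for Ccr2 and 129 CPM for Cxcr4. Cxcr4 was above Ccr1 in 6 of 6 libraries, by 2.11 ± 0.43 (SD) in log2 CPM per kilobase, and Ccrl2 was above Cxcr3 in 6 of 6, by 1.79 ± 2.03. The exact two-sided sign-flip permutation test gave p = 0.03125 for both pairs, the smallest p that 6 libraries allow, and adjusted p = 0.094 over the 6 pairs of neighbours. The pairs and their direction were taken from the mean levels of these same libraries. The p-values of the order are therefore not independent of the ranking and cannot serve as support for it. Ccr1 was above Cxcr2 in 5 of 6 libraries and Cxcr3 above Ccr7 in 5 of 6, with adjusted p = 0.12 and 0.14 from the same exact permutation test. The places of Cxcr2, Cxcr6 and Ccrl2 among each other were within their spread, since Cxcr2 was above Cxcr6 in 2 of 6 libraries and Cxcr6 above Ccrl2 in 3 of 6 (adjusted p = 0.60 and 0.69, exact permutation test).

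The upstream sequences of the 2 most abundant of these receptors are shown here because they are of different kinds, a CpG-rich one for Cxcr4 and a CpG-poor one for Ccr1. Each run holds the 250 bases before the RefSeq start of the gene (GRCm38.p6), read 5′ to 3′ on the gene's own strand. Capitals mark TATAAA on either strand in Cxcr4, where the matches on both strands overlap, and GAGGAA, the core of the motif of the myeloid factor PU.1, in Ccr1.
Cxcr4, chr1:128592300-128592549, minus strand: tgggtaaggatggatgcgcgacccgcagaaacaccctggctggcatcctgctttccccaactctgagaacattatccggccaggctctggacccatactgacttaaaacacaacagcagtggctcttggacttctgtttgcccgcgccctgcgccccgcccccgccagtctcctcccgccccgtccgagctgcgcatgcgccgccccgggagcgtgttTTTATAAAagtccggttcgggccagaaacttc
Ccr1, chr9:123968693-123968942, minus strand: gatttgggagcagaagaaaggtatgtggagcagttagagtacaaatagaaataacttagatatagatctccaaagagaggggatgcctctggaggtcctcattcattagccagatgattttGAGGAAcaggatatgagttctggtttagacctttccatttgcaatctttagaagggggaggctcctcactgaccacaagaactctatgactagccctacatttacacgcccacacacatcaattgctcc
The Cxcr4 run had 19 CpG dinucleotides and a GC content of 61.2%, and 80.3% of 32851 windows of the same length before RefSeq starts had fewer. The Ccr1 run had 1 CpG and a GC content of 43.6%, and 7.9% of the windows had fewer. TATAAA began 30 bases before the start of Cxcr4 and was in 12.4% of all windows. GAGGAA began 129 bases before the start of Ccr1 and was also found, on either strand, in the windows of Cxcr2 and Cxcr3, against 23.3% of all windows. The windows of Ccrl2 (5 to 7 CpG over its 3 starts), Cxcr6 (3), Cxcr3 (3) and Cxcr2 (1) also lay near or below the median of 6 CpG. These are matches of letters and were not tested for any factor.

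Ccr1, a receptor for CCL3, CCL5, CCL6 and CCL9 on monocytes, was the receptor in which the groups did not overlap. In GENCODE M21, from which all positions are taken by gene identifier, it lies on chromosome 9 of GRCm38, from 123962124 to 123968692 on the minus strand. The intervals that the count table itself lists overlap the M21 gene in 0 of the 7 receptors. Its level was 62.2 CPM in femur S13, 60.2 in S15 and 64.6 in S18, and 22.6 CPM in mandible S16, 49.9 in S19 and 29.9 in S23. The femur libraries were thus close together and the mandible libraries spread below them. The means were 62.3 ± 2.21 CPM for the femur and 34.1 ± 14.1 CPM for the mandible (SD, n = 3 per group), and the log2 fold change was -0.87 (standard error, SE, 0.31, 95% interval -1.55 to -0.18, edgeR). The unadjusted p of edgeR was 0.017 and the adjusted p was 0.17, and the exact two-sided permutation test gave p = 0.1, the smallest that 3 against 3 libraries allow. Set against the summed monocyte markers of the same library, Ccr1 was again lower in every mandible library than in every femur library, by 0.86 in log2 (exact permutation p = 0.1, adjusted p = 0.80 over 8 ratios). In these bulk libraries fewer cells of a type and less RNA per cell cannot be told apart.

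Cxcr4, the receptor for CXCL12, was the most abundant of the 7 and had more counts than 92.8% of the tested genes when scaled to CPM. It lies on chromosome 1, from 128588199 to 128592293 on the minus strand. Its level was 147 CPM in femur S13, 111 in S15 and 201 in S18, and 93.2 CPM in mandible S16, 116 in S19 and 102 in S23. The groups overlapped, because femur S15 lay below mandible S19, and femur S18 stood highest. The means were 153 ± 45.4 CPM for the femur and 104 ± 11.4 CPM for the mandible (SD, n = 3 per group), and the log2 fold change was -0.56 (SE 0.28, 95% interval -1.18 to 0.05, adjusted p = 0.36 in edgeR). The interval ran from more than 2-fold lower to slightly above the level of the femur. Beside the summed B cell markers of the same library, cells that also carry CXCR4, the log2 ratio of Cxcr4 differed by 0.06 between the groups (exact permutation p = 0.8), with summed B cell markers of 1164 to 2390 CPM for the femur and 983 to 1361 CPM for the mandible.

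Cxcr2, the receptor with which neutrophils follow the CXCL1 family out of the marrow, varied most from library to library among the receptors with at least 10 counts in every library. It lies on chromosome 1, from 74153989 to 74161246 on the plus strand. Its level was 56.0 CPM in femur S13, 4.84 in S15 and 9.59 in S18, and 25.3 CPM in mandible S16, 13.5 in S19 and 6.86 in S23. The highest and the lowest library were both of the femur, 11.6-fold apart, and the mandible libraries lay between them. The log2 fold change was -0.62 (SE 0.77, 95% interval -2.32 to 1.07, adjusted p = 0.80 in edgeR). Without femur S13 it was 1.08, so that this 1 library set its direction. The summed neutrophil markers were also highest in femur S13, at 35109 CPM, and lowest in femur S15, at 4292 CPM, but femur S18 had 25444 CPM of them beside a Cxcr2 level of 9.59 CPM. The log2 ratio of Cxcr2 to these markers was -10.15 ± 1.09 in the femur and -9.15 ± 0.76 in the mandible (SD, n = 3 per group, exact permutation p = 0.4), and that of Cxcr2 to Cxcr4, which act in opposite directions on neutrophils of the marrow, differed by 0.47 (exact permutation p = 0.6). The part of neutrophils in the Cxcr2 level was not tested further.

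Cxcr6, the receptor for CXCL16 on T, NK and NKT cells, lies on chromosome 9, from 123806475 to 123811760 on the plus strand, inside an intron of Fyco1, which is transcribed from the other strand. The genes share no exonic base, but whether the counting used the strand is not stated, so reads from the introns of Fyco1 (93.4 CPM on its own exons) cannot be told apart from those of Cxcr6. The Cxcr6 level was 8.78 CPM in femur S13, 3.23 in S15 and 7.86 in S18, and 6.30 CPM in mandible S16, 8.97 in S19 and 6.12 in S23. The mandible libraries lay close to the higher pair of femur libraries, and femur S15 lay below the other 5. The log2 fold change was 0.11 (SE 0.55, 95% interval -1.11 to 1.32, adjusted p = 0.96 in edgeR), and it turned to -0.27 without femur S15 and to -0.14 without mandible S19. Beside the summed T and NK cell markers, 101 to 241 CPM for the femur and 158 to 308 CPM for the mandible, the log2 ratio differed by -0.18 (exact permutation p = 0.9).

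Ccrl2 was the most even of the 7 over the libraries, with its highest level 1.72-fold its lowest. It lies on chromosome 9 as well, from 111054486 to 111057519 on the minus strand. Its level was 9.22 CPM in femur S13, 6.17 in S15 and 10.4 in S18, and 8.61 CPM in mandible S16, 6.03 in S19 and 9.32 in S23. Each group thus had 1 library near 6 CPM. The log2 fold change was -0.11 (SE 0.47, 95% interval -1.13 to 0.92, adjusted p = 0.96 in edgeR), an interval that leaves room for a difference of about 2-fold in either direction, and the sign turned without femur S18 and without mandible S19.

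Cxcr3, the receptor for CXCL9 and CXCL10 on T helper 1 and NK cells, was low in 5 libraries and nearly absent in 1. It lies on chromosome X, from 101731535 to 101734269 on the minus strand. Its level was 3.20 CPM in femur S13, 2.30 in S15 and 2.74 in S18, and 0.050 CPM in mandible S16, 3.18 in S19 and 2.12 in S23. The value of mandible S16 rests on 1 count, against 37 to 67 counts in the other 5. The log2 fold change was -0.62 (SE 1.18, 95% interval -3.22 to 1.98, adjusted p = 0.89 in edgeR) with all libraries and -0.05 without mandible S16, and limma-voom gave -1.78 with all libraries (adjusted p = 0.49). The same library had 2 counts of Cd4 (27 to 40 in the other 5) and 10 of Cd3d (91 to 277 in the other 5), genes of T cells, but 259 counts of Cd3e and 265 of Ncr1, the latter an NK cell receptor gene, in CPM both above the 3 femur libraries. Beside the summed T and NK cell markers the log2 ratio of Cxcr3 was -5.88 ± 0.41 in the femur and -7.92 ± 2.42 in the mandible (SD, n = 3 per group, exact permutation p = 0.3). The difference of -2.03 was -0.68 without mandible S16 and -3.01 without mandible S19. It was -2.30 without the most abundant of these markers (exact permutation p = 0.1, the smallest that 3 against 3 libraries allow). Mandible S23, the 1 library with Xist, was within the range of the others for this X-linked gene.

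Ccr7, the receptor for CCL19 and CCL21, was the lowest of the 7. It lies on chromosome 11, from 99144196 to 99155077 on the minus strand. Its level was 1.27 CPM in femur S13, 0.553 in S15 and 0.177 in S18, from 23, 12 and 4 counts. In the mandible it was 2.71 CPM in S19 and 3.72 in S23, from 57 and 65 counts, while S16 had no count, which allows up to 0.150 CPM. The mandible thus held both the highest levels and the lowest. The log2 fold change was 1.68 (SE 1.64, 95% interval -1.92 to 5.28, adjusted p = 0.72 in edgeR). With limma-voom, which fits log2 levels with a weight for each value, it was 0.28 (adjusted p = 0.96). The dendritic cell markers summed to 109 to 133 CPM for the femur and 191 to 206 CPM for the mandible, without overlap. Tcf4 and Fscn1, 2 of the 12 tested, were called higher, as were 3.88% of all tested genes. The cells from which the transcripts of these dendritic cell markers came were not tested. Mandible S16 had 191 CPM of these markers and no Ccr7 count. The log2 ratio of Ccr7 to them was -7.71 ± 1.32 in the femur and -7.94 ± 3.44 in the mandible (SD, n = 3 per group), and it was 1.76 higher in the mandible without S16.

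**Figure D2:**
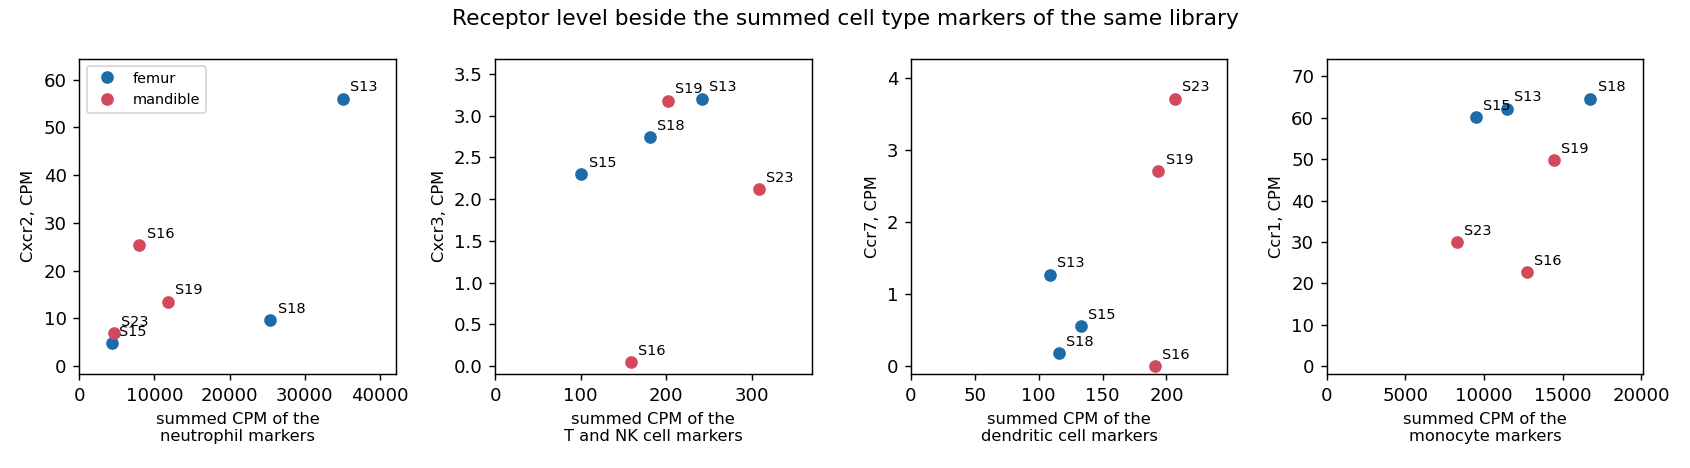
Level of 4 receptors (vertical axis, CPM) against the summed level of the markers of a cell type known to carry them (horizontal axis, CPM) in the same library, with femur libraries in blue and mandible libraries in red. Femur S13 is highest for both Cxcr2 and the neutrophil markers, mandible S16 has T, NK and dendritic cell markers beside almost no Cxcr3 or Ccr7, and the 3 mandible libraries lie below the femur libraries for Ccr1 over an overlapping range of the monocyte markers.

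The size of the difference that these libraries could show depended on the receptor. The 95% interval was narrowest for Cxcr4 and Ccr1, and widest for Cxcr3 and Ccr7, whose levels rest on 0 to 67 counts in a library. A p that misses the threshold does not show that the groups were alike, and differences of 2-fold lay within the interval of every one of the 7 in at least 1 direction.

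**Figure D3:**
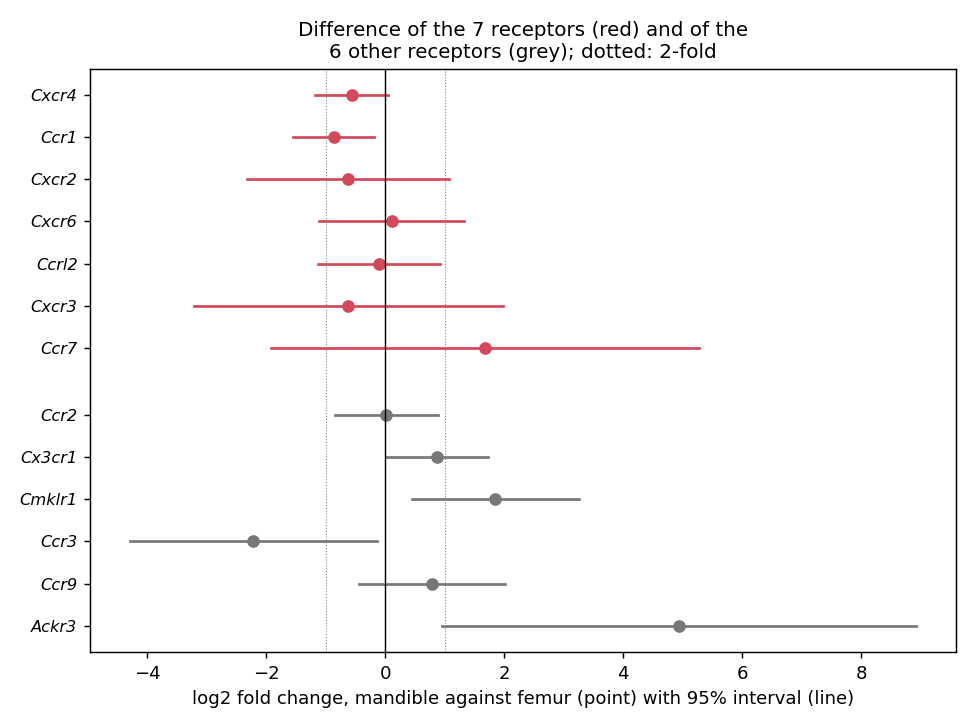
Log2 fold change of mandible against femur (point) with its 95% interval (line) from edgeR for the 7 receptors in red and for 6 other receptors of the family in grey, with dotted lines at a 2-fold difference. Of the red lines, that of Ccr1 alone stays clear of 0, from -1.55 to -0.18, and those of Cxcr3 and Ccr7 span several log2 units.

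**Figure D4:**
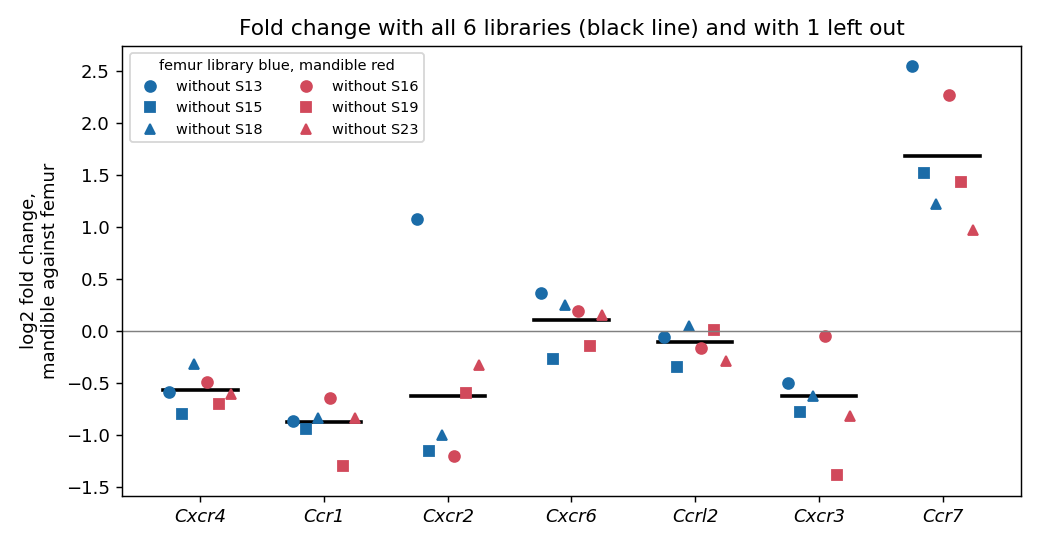
Log2 fold change of each receptor with all 6 libraries (black line) and with 1 library left out (symbols, named in the key). Ccr1, Cxcr4 and Cxcr3 stay below 0, Cxcr3 only just without mandible S16 (-0.05), and Ccr7 stays above 0 throughout. Cxcr2 moves to 1.08 without femur S13, and Cxcr6 and Ccrl2 change sign.

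The 18 other members of the receptor family were read in the same way. Of these, 9 passed the filter and 0 were called by edgeR or limma-voom, while DESeq2 called 1, the scavenger receptor of CXCL12 Ackr3 (log2 fold change 5.06, adjusted p = 0.025). Over all 18114 tested genes edgeR called 3.88% higher and 1.30% lower, DESeq2 called 1536 genes and limma-voom 753, in either direction. Ackr3 had 4 counts in femur S13 and none in the other femur libraries, and 45, 73 and 23 counts in mandible S16, S19 and S23. In edgeR its adjusted p was 0.18. Cmklr1, the signaling receptor of chemerin and so the partner of Ccrl2, was 2.93 ± 2.05 CPM for the femur and 10.6 ± 3.79 CPM for the mandible (SD, n = 3 per group). Every mandible library was above every femur library, as in 12.7% of all tested genes, and the log2 fold change of Cmklr1 was 1.85 (adjusted p = 0.15 in edgeR). It was called when femur S15 was left out (2.53, adjusted p = 0.043). Cx3cr1, the fractalkine receptor of nonclassical monocytes, was 78.7 ± 28.5 CPM and 144 ± 69.5 CPM (adjusted p = 0.30 in edgeR), with overlapping libraries. Ccr3, the eotaxin receptor of eosinophils, was 7.44 ± 4.12 CPM and 1.59 ± 1.84 CPM (adjusted p = 0.26 in edgeR), beside summed markers of eosinophils, basophils and mast cells of 712 to 5047 CPM for the femur and 410 to 813 CPM for the mandible. With Ccr1 these were the 5 of 16 tested receptors of the family with an unadjusted p under 0.05, against 16.4% of all tested genes.

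Cxcr6 and Ccr1 lie on chromosome 9 of GRCm38 among 7 receptor genes, from 123678439 to 124113557, over 435.1 kilobases. In the order of the chromosome these are Ccr9, Cxcr6, Xcr1, Ccr1, Ccr1l1, Ccr3 and Ccr2. The neighbours of Ccr1 were nearly silent, with 0.083 CPM per kilobase for Xcr1 and 0.086 for Ccr1l1, neither of which passed the filter, while Ccr2 at the far end was at 98.2 CPM per kilobase. The fold changes along the cluster had both signs. The log2 fold change was 0.78 for Ccr9, 0.11 for Cxcr6, -0.87 for Ccr1, -2.22 for Ccr3 and 0.02 for Ccr2. The other 6 of the 7 receptors overlap no annotated gene, and Cxcr6 overlaps Fyco1 alone.

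Among the 21 genes for ligands of the 7 receptors, 15 passed the filter. Of these, 1 was called higher and 1 lower in the mandible, against 3.88% and 1.30% of all tested genes, and 6 had an unadjusted p under 0.05, against 16.4%. Their median log2 fold change was -0.38. The ligands with the highest level were Ccl6 and Ccl9, mouse ligands of Ccr1, and Cxcl12. Ccl6 was 335 ± 106 CPM for the femur and 224 ± 3.30 CPM for the mandible (SD, n = 3 per group, adjusted p = 0.38 in edgeR). Ccl9 was 219 ± 49.4 CPM and 168 ± 42.0 CPM (adjusted p = 0.62).

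Cxcl12, the ligand of Cxcr4 made by the stroma of the marrow, was 243, 149 and 178 CPM in femur S13, S15 and S18 and 34.7, 57.7 and 121 CPM in mandible S16, S19 and S23. Every mandible library was below every femur library, as in 11.5% of all tested genes, and the log2 fold change was -1.42 (SE 0.42, adjusted p = 0.084 in edgeR). It was not called in edgeR but passed both thresholds in DESeq2 (adjusted p = 0.018) and limma-voom (adjusted p = 0.022), and in edgeR without femur S15 (adjusted p = 0.042) or mandible S23 (adjusted p = 0.014). Over the same libraries 10 of 14 tested mesenchymal and endothelial markers were called higher in the mandible and 0 lower, against 3.88% and 1.30% of all tested genes. Their part in the Cxcl12 level was not tested.

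The ligand that fell was Ppbp, the precursor of the Cxcr2 ligand CXCL7, which platelets store. Its level fell from 119 ± 25.4 CPM in the femur to 13.4 ± 10.2 CPM in the mandible (SD, n = 3 per group), and the log2 fold change was -3.16 (SE 0.52, adjusted p = 0.0045 in edgeR). Of the megakaryocyte and platelet markers 7 of 8 tested were called lower and 0 higher in the same fit, against 1.30% and 3.88% of all tested genes. The part of platelets in the Ppbp level was not tested. Ppbp stayed called with any 1 library left out (adjusted p = 0.0017 to 0.029). Cxcl5, another ligand of Cxcr2, had 37, 44 and 47 counts in femur S13, S15 and S18 and none in any mandible library, which allows up to 0.142 to 0.172 CPM there. It missed the threshold in edgeR (adjusted p = 0.055) and was called lower in DESeq2 (adjusted p = 0.0011) and in edgeR without the filter on low counts (adjusted p = 0.031). Cxcl1 and Cxcl3 did not pass the filter.

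The ligand that rose was Ccl21a, a ligand of Ccr7. It had 0, 4 and 0 counts in femur S13, S15 and S18 and 115, 101 and 75 counts in mandible S16, S19 and S23, or 0.061 ± 0.106 and 4.95 ± 0.74 CPM (SD, n = 3 per group, adjusted p = 0.028 in edgeR). The call held without femur S15 (adjusted p = 0.0073) but not without any 1 of the other 5 libraries (adjusted p = 0.062 to 0.12). Near-identical copies of this gene exist in the mouse genome, so the share of its counts is uncertain. The other ligand of Ccr7, Ccl19, did not pass the filter. Rarres2, which encodes chemerin, was 3.41 ± 0.59 CPM for the femur and 11.5 ± 9.05 CPM for the mandible (adjusted p = 0.19 in edgeR). Its log2 fold change of 1.76 became 2.19 without mandible S16 (adjusted p = 0.049) and 0.91 without mandible S23 (adjusted p = 0.61), the library with its highest level. Cxcl16, the ligand of Cxcr6, was 2.54 ± 0.61 and 4.69 ± 1.89 CPM (adjusted p = 0.66).

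Behind the receptors, all 25 genes for signaling and desensitization passed the filter. Of these, 1 was called lower and 0 higher, against 1.30% and 3.88% of all tested genes, and their median log2 fold change was -0.07. The most abundant were Gnai2, the inhibitory G protein subunit of these receptors, Dock2, which activates Rac in moving white blood cells, and Grk2, the kinase that desensitizes them. Gnai2 was 809 ± 237 CPM for the femur and 886 ± 300 CPM for the mandible, Dock2 was 552 ± 90.3 and 668 ± 60.3 CPM, and Grk2 was 360 ± 58.9 and 379 ± 91.9 CPM (SD, n = 3 per group), and their log2 fold changes were 0.13, 0.27 and 0.07, with an adjusted p of 0.74 to 0.95. The gene called lower was Rgs18, which ends G protein signals and is abundant in megakaryocytes and platelets, at 106 ± 33.5 CPM for the femur and 39.1 ± 14.4 CPM for the mandible (log2 fold change -1.44, SE 0.36, adjusted p = 0.041 in edgeR). It stayed called without femur S15 (adjusted p = 0.0072) and lost the call without any 1 of the other 5 libraries (adjusted p = 0.072 to 0.17). The platelet and megakaryocyte markers given beside Ppbp moved in the same direction.

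The genes most like each receptor over the 6 libraries were sought among 168 genes of the lists, by Pearson's r of log2 CPM. Ccr1 was most like Cd5l (r = 0.96), Gp9 (0.94) and C1qc (0.91), of macrophages and platelets. Cxcr4 was most like Ccl6 (r = 0.97), Jchain (0.95) and Ly6c2 (0.94). Cxcr2 was most like the erythroid gene Klf1 (r = 0.92), the neutrophil gene Mmp8 (0.92) and the basophil gene Prss34 (0.91). Cxcr6 was most like a trio of neutrophil genes, Ltf (r = 0.96), Ly6g (0.94) and Cd177 (0.94), and none of the T and NK cell markers was among its nearest 3. Cxcr3 was most like Cd4 (r = 0.98), Il5ra (0.94) and Cd3d (0.91), and Ccr7 was most like Zbtb46 (0.89), Cd3d (0.87) and Cd4 (0.81). Ccrl2 had the loosest likeness, to Kdr (r = 0.85), Epx (0.77) and Mrc1 (0.67). These values describe 6 libraries of unequal depth and cell makeup and carry no test, and 1 library such as mandible S16 can set those of Cxcr3 and Ccr7.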

How the data were processed

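Monocytes of the mandible and femur were sequenced in 6 libraries, 3 per site. The deposited values are raw counts of paired-end reads per gene, which the authors made by trimming with Trimmomatic, mapping with HISAT2 2.1.0 to GRCm38 (versions per the submitters' processing notes) and counting with featureCounts. The use of the strand is not given in the sources used here. All count columns were used, and 0 were left aside. Genes were kept with filterByExpr (minimum count 10, minimum total 15), scaled by TMM and tested in R 4.3.3 with edgeR 4.0.16 (quasi-likelihood, prior count 0.125), without covariates, after tests on simulated data. The standard error is the log2 fold change divided by the square root of F, and 95% intervals use the residual and prior degrees of freedom. Log2 levels used for permutation tests, ratios, order and likeness had 0.05 CPM added. Alternatives were DESeq2 1.42.0, limma-voom (limma 3.58.1), other scalings, filters, thresholds and prior counts, a correction for gene length (loess, span 0.4) and each library left out.

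The members, though taken by name, and the lists and tests were chosen with earlier results of these data known. The genes named are the 7 receptors, in the receptor, ligand and signaling lists every called gene and the 3 with the highest mean CPM, the leading markers, the 3 genes most like each receptor, receptors of the chromosome 9 cluster, Xist and Ddx3y. Not every gene that meets this rule is reported here. Other ligands, receptors, T cell genes and called markers were named after their values were seen. Positions come from GENCODE M21 (GRCm38) by Ensembl identifier. Their chromosome, strand and exonic length equalled those of the count table in 25 of 25 receptor genes. The start and end that the table lists fell outside the M21 gene in all 25, although the processing notes name GRCm38. The build of the table's own intervals is thus uncertain, and these coordinates were not used. Promoters come from RefSeq, which matched 6 of the 7 receptors. Lists of macrophage (1 of 10 tested called, Vcam1, lower), eosinophil, basophil and mast cell (1 of 10 called, Prg2, lower) and erythroid markers (4 of 10 called, lower) were read in the same fit, as were those of B cells (1 of 8, Ebf1, higher), neutrophils (1 of 15, S100a8, lower) and T and NK cells (1 of 19, Gzmb, higher). Over all tested genes 3.88% were called higher and 1.30% lower in this fit.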

Additional observations from a re-analysis of the deposited data

How the results depend on the processing

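None of the 7 receptors was called in any of 16 alternative fits, and the lowest adjusted p was 0.075, for Ccr1 without mandible S19. With all libraries kept, 2 fold changes turned direction, that of Cxcr2 under limma-voom (0.072) and that of Ccrl2 without normalization factors (0.031). Under limma-voom Cxcr3 was at -1.78 and Ccr7 at 0.28. With 1 library left out, the log2 fold change ranged from -1.30 to -0.64 for Ccr1, -0.79 to -0.31 for Cxcr4, -1.20 to 1.08 for Cxcr2, -0.27 to 0.37 for Cxcr6, -0.34 to 0.055 for Ccrl2, -1.38 to -0.05 for Cxcr3 and 0.97 to 2.54 for Ccr7. The within-library log2 ratios then ranged from -0.065 to 1.49 for Cxcr2 to Cxcr4, -0.40 to 0.18 for Cxcr6 to the T and NK cell markers, -1.30 to 1.76 for Ccr7 to the dendritic cell markers, -0.37 to 0.34 for Ccrl2 to the monocyte markers, -1.06 to -0.53 for Ccr1 to the monocyte markers, 0.39 to 1.42 for Cxcr2 to the neutrophil markers, -3.01 to -0.68 for Cxcr3 to the T and NK cell markers and -0.058 to 0.24 for Cxcr4 to the B cell markers, and the step from Cxcr6 to Ccrl2 in the order from -0.061 to 0.24. Without the most abundant marker of each list, the difference in log2 ratio was -2.30 for Cxcr3 and -0.44 for Cxcr6 to the T and NK cell markers. It was -1.14 for Ccr1 and -0.29 for Ccrl2 to the monocyte markers, and 0.35 for Cxcr4 to the B cell markers. For Cxcr2 to the neutrophil markers it was 0.71, and for Ccr7 to the dendritic cell markers -0.032. With 5 libraries the sign-flip permutation test of the order cannot go below p = 0.0625.

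Over all genes, 702 were called higher and 236 lower. DESeq2 called 1083 and 453, 157 were called lower without normalization factors and 571 lower with no filter other than 1 count. Leaving out 1 library gave 376 to 957 higher and 58 to 608 lower, the lowest numbers without mandible S19 and the highest without femur S15. Among the other genes named, the call of Rgs18 was lost under RLE size factors, without normalization factors and with the length trend removed (adjusted p = 0.050 to 0.075), and Cxcl12 was called lower under 6 alternatives. With the length trend removed the log2 fold change turned to -0.34 for Dock2, -0.095 for Grk2 and -0.011 for Gnai2, and with 1 library left out it ranged from -0.14 to 0.14 for Grk2 and -0.14 to 0.34 for Gnai2. The causes were not tested. No paired analysis was possible because the labels do not name the animal of a library, so whether femur and mandible libraries share mice is not known. With 3 libraries a group and wide intervals for the low receptors Cxcr3 and Ccr7, differences of several fold in them were not detectable.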
